A study of Homo sapiens with 9 samples.

Results

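The genes described here are 10 interferon-stimulated and RNA-sensing genes: ISG15, ISG20, IFI6, IFITM1, IFITM2, IFITM3, IFIT1, IFIH1, EIF2AK2 and ADAR. They were picked out by symbol, as the deposited identifier table assigns assembled transcripts to genes, with earlier results of these data known. They are 10 of 49622 gene symbols in the isoform table and account for 55 of its 199618 isoforms. In the table of gene loci they occupy 9 of 22266 loci, because IFITM1 and IFITM2 share 1 locus.

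RNA was sequenced from HEK293 cells, an established human embryonic kidney line, of the Flp-In T-Rex type and a subline labelled b-39. All of these cells carried a β-globin reporter gene with a premature stop codon, called PTC39, at the Flp-In site. The groups were cells given an EGFP siRNA (the control), cells depleted of XRN1, cells depleted of both SMG6 and XRN1, and cells depleted of both UPF1 and XRN1. Nonsense-mediated decay (NMD) removes mRNAs on which translation ends too early: the helicase UPF1 directs it, SMG6 cuts the target RNA, and XRN1 digests decapped RNA and the downstream pieces. RNA came from digitonin extracts of the cytoplasm and was selected for poly(A) tails. Neither siRNA dose and duration nor the number of clones behind the line was given in the sources used here. With 1 library in each group, differences have no replicate check and no p-value was computed. The series also held 4 libraries of RNA 5′ ends and a CAGE library, which were not analysed here.

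Cells detect foreign or misplaced RNA with sensor proteins such as IFIH1 (MDA5), a helicase that binds long double-stranded RNA and signals through MAVS to switch on interferon genes. Secreted type I interferon binds its receptor, JAK kinases pass the signal on, and a transcription factor complex that contains IRF9 binds interferon-stimulated response elements in the promoters of target genes. The products of those genes block viral entry, translation or replication. ADAR edits adenosine to inosine in double-stranded RNA, which keeps a cell's own RNA from activating IFIH1 and EIF2AK2.

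The promoters of these genes were read for the interferon-stimulated response element. The genes were chosen as interferon-stimulated, so the share with a match is not independent of that choice. RefSeq promoters (assembly GRCh38.p14, 250 bases before to 50 after a gene's start) were available for 9 of the 10 genes and not for IFITM2. They were searched on both strands for the core of that element, GAAA followed after any 2 bases (NN) by another GAAA. A match was present in 8 of the 9 genes, all except ADAR, whose 3 promoters held none. Over all promoters, 3.57% of 35116 entries and 4.38% of 27305 gene symbols held a match. The match nearest to each gene's start, with any match that overlaps it, is shown with 25 bases on either side, 5′ to 3′ on the gene's strand. Capitals mark only the bases of that match, which in IFIT1 lie on the opposite strand and so read as the reverse complement. The flanks shown for IFI6, IFITM3 and IFIT1 hold a further match in lower case. The promoter windows of these genes held 3, 2 and 2 matches.
ISG15, chr1:1013359-1013424, plus strand: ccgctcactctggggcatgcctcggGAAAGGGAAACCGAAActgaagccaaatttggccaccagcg
ISG20, chr15:88638922-88638981, plus strand: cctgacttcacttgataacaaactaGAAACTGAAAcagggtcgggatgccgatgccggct
IFI6, chr1:27672251-27672310, minus strand: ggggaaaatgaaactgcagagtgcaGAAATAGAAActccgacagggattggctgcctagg
IFITM1, chr11:314009-314068, plus strand: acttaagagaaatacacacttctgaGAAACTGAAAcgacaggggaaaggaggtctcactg
IFITM3, chr11:320861-320920, minus strand: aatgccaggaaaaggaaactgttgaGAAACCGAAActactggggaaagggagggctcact
IFIT1, chr10:89392495-89392554, plus strand: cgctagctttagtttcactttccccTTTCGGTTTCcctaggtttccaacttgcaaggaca
IFIH1, chr2:162318671-162318730, minus strand: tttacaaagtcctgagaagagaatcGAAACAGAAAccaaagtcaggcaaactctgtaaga
EIF2AK2, chr2:37156952-37157011, minus strand: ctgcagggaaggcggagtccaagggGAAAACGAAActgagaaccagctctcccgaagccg
In ISG15, 2 matches overlapped in a run of 16 bases from 113 to 98 bases before the start. A match is a description of these letters, not a bound site.

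The libraries held 31476526 to 35983475 estimated reads, and the authors' spike-in scaling made 1 read worth 3.72 to 4.25 units of signal. The level used below is this signal summed over the isoforms of a gene, a change is log2((a + 1)/(b + 1)) of it, and a gene is said to rise or fall where the change reached 2-fold. Ratios carry exact binomial intervals at 95% that cover counting error only. In bulk RNA, fewer expressing cells and less RNA per cell cannot be told apart. The mRNAs of the depleted genes did not check the labels: XRN1 signal was 6864 in the control library and 6135, 7724 and 6897 in the libraries labelled XRN1, SMG6/XRN1 and UPF1/XRN1. SMG6 signal was 2201, 2908, 2857 and 4148 in the same order, and UPF1 signal was 4236, 7314, 7822 and 4650. The library names below are therefore those of the labels. In its own depletion relative to the library labelled XRN1, UPF1 had a ratio of 0.636 (interval 0.591 to 0.684) and SMG6 of 0.982 (0.883 to 1.09). Markers often seen in HEK293 cells were measured for 11 of 11 genes, with summed signals of 213748 to 234914, of which VIM, the intermediate filament vimentin, held 109337 to 124028. Most of the others were lower in UPF1/XRN1: over XRN1, 2 of 11 markers were above 0 (median log2 -0.39), and over the control 1 of 11 (median -0.43). The neurofilament gene NEFL, for example, had 34326, 35386, 27483 and 20459. Of 12 immune cell markers, only CD68 reached the expression minimum, and the summed signals were 1064, 922, 1385 and 1631. The leukocyte marker PTPRC had 5, 0, 4 and 1 reads and TYROBP was listed at 0 in all 4 libraries. Of 9 fibroblast and endothelial markers in the table, 2 reached the minimum, with summed signals of 440.1, 697, 523 and 547.

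On the length-corrected scale, the genes covered a wide range in the control library. The kinase EIF2AK2 (23.0 FPKM) and ADAR (22.5 FPKM) were the most abundant. The shared IFITM1 and IFITM2 locus followed with 5.92 FPKM, then IFI6 with 4.06, ISG15 with 3.88, IFIT1 with 3.07, IFIH1 with 2.38 and IFITM3 with 2.19 FPKM. ISG20 was lowest at 0.221 FPKM, from 19 reads. With 1 library per group the spread of neighbours in this order is unknown. In the library labelled UPF1/XRN1 the order was different: EIF2AK2 (24.2 FPKM) and ADAR (16.4 FPKM) stayed at the top, ISG15 came next with 11.2 FPKM, and IFITM3 was last with 0.457 FPKM.

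**Figure D1:**
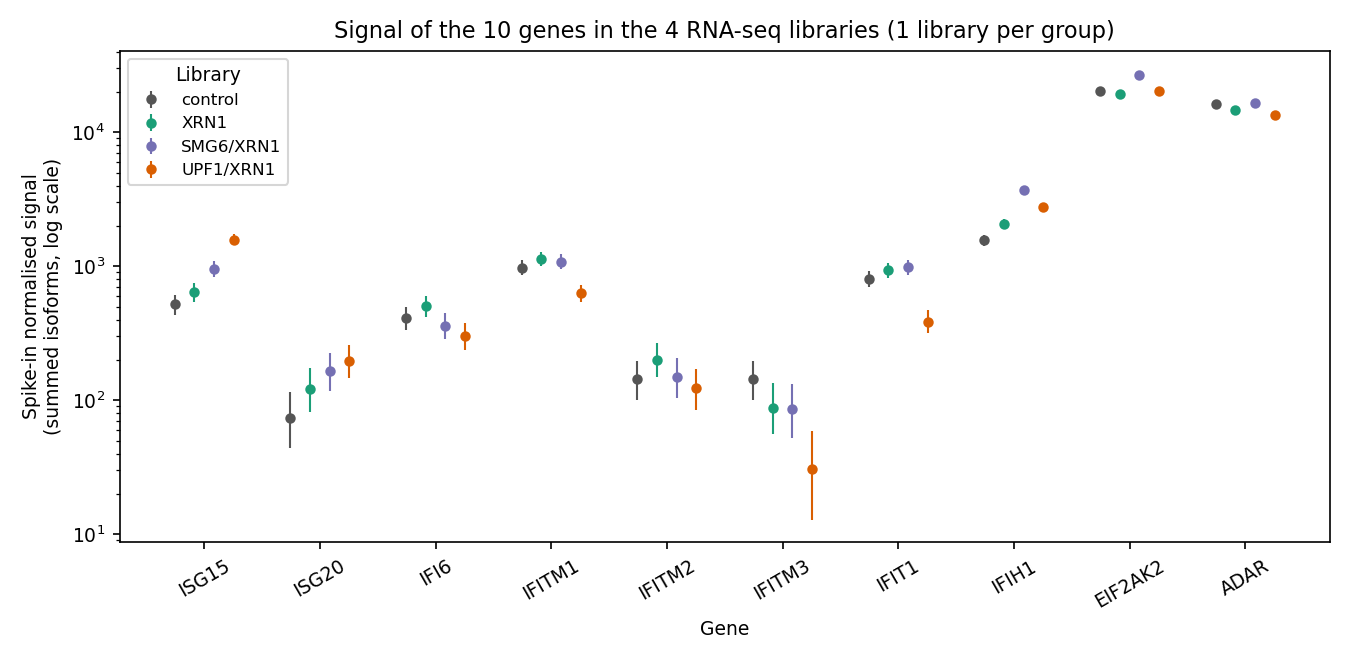
Spike-in normalised signal (log axis) of each gene in each RNA-seq library; points are single libraries and bars are 95% Poisson counting intervals. ISG15 was highest in UPF1/XRN1 (1585), where IFIT1 (387) and IFITM3 (30.5) had their lowest values; signals are not corrected for length, so heights are compared within a gene.

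ISG15 is a small ubiquitin-like protein that is attached to other proteins after interferon treatment. Its signal was 520.3 in the control library, 639.9 in XRN1, 956 with SMG6/XRN1 and 1585 with UPF1/XRN1, from 135, 158, 225 and 426 reads. The counting intervals of control and XRN1 overlapped, whereas SMG6/XRN1 lay above both and UPF1/XRN1 above all others. The ratio over XRN1 was 2.48 (interval 2.06 to 2.99) in UPF1/XRN1, a rise, and 1.49 (1.21 to 1.84) in SMG6/XRN1, under 2-fold. Between the co-depletions, UPF1/XRN1 over SMG6/XRN1 gave 1.66 (1.41 to 1.96). Of all measured genes, 96.6% had a smaller change than ISG15 in UPF1/XRN1 over XRN1, and 82.7% in SMG6/XRN1 over XRN1.

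ISG20 is an exonuclease that degrades viral RNA. Its signal was 73.2, 121, 166 and 197 in control, XRN1, SMG6/XRN1 and UPF1/XRN1, from 19, 30, 39 and 53 reads. XRN1 over control was 1.66, with an interval that held 1 (0.904 to 3.12). ISG20 rose over the control in both co-depletions, to 2.26 times with SMG6 (interval 1.28 to 4.15) and 2.69 times with UPF1 (1.57 to 4.82). Over XRN1 the ratios were 1.36 (0.826 to 2.27) and 1.62 (1.02 to 2.63), both under 2-fold. The FPKM of the same locus spread far more, with 0.221, 0.371, 1.26 and 4.80, so that UPF1/XRN1 over control was 21.8-fold in FPKM against 2.69-fold in signal. In UPF1/XRN1 the ISG20 reads included 5.85 on the short transcript ISG20-207, of 190 bases, which was listed at 0 in the control, and 11.9 on the retained-intron transcript ISG20-209. Their part in the FPKM difference was not tested.

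The IFI6 protein sits in membranes of the endoplasmic reticulum and mitochondria and limits cell death and viral replication. Its signal was 409, 502, 361 and 301 in control, XRN1, SMG6/XRN1 and UPF1/XRN1. Both co-depletions lay below XRN1, with ratios of 0.720 (0.539 to 0.956) in SMG6/XRN1 and 0.600 (0.448 to 0.800) in UPF1/XRN1. Neither reached 2-fold. Few genes changed further downwards: 2.33% of all genes lay below IFI6 in SMG6/XRN1 over XRN1 and 4.53% in UPF1/XRN1 over XRN1.

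IFITM1, IFITM2 and IFITM3 are small membrane proteins that block fusion of viruses with the cell, IFITM1 mainly at the surface and IFITM2 and IFITM3 in endosomes. IFITM1 signal was 979, 1139, 1082 and 627 in control, XRN1, SMG6/XRN1 and UPF1/XRN1. The UPF1/XRN1 library alone stood apart, at 0.550 (0.454 to 0.671) of XRN1 and 0.579 (0.475 to 0.707) of SMG6/XRN1. IFITM2 signal was 144, 201, 149 and 123, and its ratio of UPF1/XRN1 over XRN1 was 0.613 (0.378 to 0.960). IFITM3 signal was 144, 87.5, 86.5 and 30.5, from 37, 22, 20 and 8 estimated reads. It fell in UPF1/XRN1, to 0.349 (0.129 to 0.779) of XRN1 and 0.212 (0.0839 to 0.455) of the control. In XRN1 over control the ratio was 0.609 with an interval that held 1 (0.351 to 1.09). All 3 members had their lowest value in UPF1/XRN1. For IFITM2 this holds within counting error only: UPF1/XRN1 was 0.854 (0.522 to 1.41) of the control. Its ratio over SMG6/XRN1 was 0.826 (0.497 to 1.37), and both intervals held 1.

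How reads were divided within the IFITM family is uncertain. By GENCODE release 29, the reading frames of IFITM2 (399 bases) and IFITM3 (402 bases) were identical at 93.3% of positions, with a longest identical run of 99 bases. IFITM1 was identical to IFITM2 at 66.6% and to IFITM3 at 68.6% of positions, with longest identical runs of 99 and 141 bases. The locus of IFITM3 also held RP11-326C3.14, and IFITM3 took 80.1%, 49.1%, 49.3% and 28.0% of its signal in the 4 libraries. The FPKM of that locus, 2.19, 1.07, 0.958 and 0.457, therefore covers both genes as the authors assembled them. IFITM3's share of the locus signal was lowest in UPF1/XRN1 and was lower in XRN1 than in the control. In both cases the summed signal of the locus was thus lowered less than that of IFITM3 itself. How far the IFITM3 ratios depend on this division was not tested.

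IFIT1 binds mRNA caps that lack 2′-O methylation and stops their translation. Its signal was 809 in control, 931 in XRN1, 986 with SMG6/XRN1 and 387 with UPF1/XRN1, from 210, 230, 232 and 104 reads. The first 3 libraries lay close together and UPF1/XRN1 lay below all of them. IFIT1 fell to 0.415 (0.326 to 0.526) of XRN1, 0.392 (0.308 to 0.496) of SMG6/XRN1 and 0.478 (0.374 to 0.607) of the control. In UPF1/XRN1 over XRN1 only 0.878% of genes changed further downwards than IFIT1, and 0.526% further than IFITM3. SMG6/XRN1 over XRN1 gave 1.06 (0.879 to 1.28) for IFIT1.

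IFIH1, the double-stranded RNA sensor, had a signal of 1565 in control and 2061 in XRN1. The co-depletions had 3694 (SMG6) and 2782 (UPF1). Its reads were 406, 509, 869 and 748. Each depleted library lay above the control and SMG6/XRN1 was highest. IFIH1 rose over the control in SMG6/XRN1, with a ratio of 2.36 (2.10 to 2.66). The other ratios stayed under 2-fold: 1.32 (1.15 to 1.504) in XRN1 over control, 1.79 (1.60 to 2.003) in SMG6/XRN1 over XRN1 and 1.35 (1.20 to 1.51) in UPF1/XRN1 over XRN1. UPF1/XRN1 over SMG6/XRN1 was 0.753 (0.682 to 0.832), so IFIH1 and ISG15 had their highest values in different co-depletions.

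EIF2AK2, also known as PKR, is a kinase that binds double-stranded RNA and stops translation by phosphorylating eIF2. Its signal was 20508 in control, 19248 in XRN1, 27032.5 with SMG6/XRN1 and 20441 with UPF1/XRN1. SMG6/XRN1 was highest on the spike-in scale, at 1.40 (1.35 to 1.46) of XRN1 and 1.32 (1.27 to 1.37) of the control. UPF1/XRN1 over control was 0.997 (0.960 to 1.04). Per sequenced read, without the spike-in scaling, SMG6/XRN1 was 1.27 of XRN1 and 1.09 of the control. Over the control, 49.0% of all genes had a smaller change than EIF2AK2, and its sign turned on centring (log2 0.40 before and -0.01 after).

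ADAR had the narrowest range, with signals of 16199, 14680.2, 16609 and 13399 in control, XRN1, SMG6/XRN1 and UPF1/XRN1. UPF1/XRN1 was lowest, at 0.913 (0.871 to 0.956) of XRN1 and 0.827 (0.791 to 0.865) of the control. SMG6/XRN1 over XRN1 was 1.13 (1.08 to 1.18). That is a smaller change than the median gene's, so its sign turned when changes were centred on the median (log2 0.18 before and -0.05 after).

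XRN1 depletion alone left all 10 genes within 2-fold of the control. The counts were 0 higher, where 10.2% of all 15596 measured genes were called, and 0 lower, where 1.43% were. The median change of the 10 genes was 0.26 on the log2 scale and that of all genes 0.19. The counting interval lay above 1 for IFIH1 (as for 49.3% of all genes) and below 1 for EIF2AK2 and ADAR (14.9% of all genes). Centred on the median gene, 7.52% of all genes were higher and 2.3% lower.

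Adding the depletion of SMG6 also moved none of the 10 genes by 2-fold. Again 0 were higher (5.07% of all genes) and 0 lower (0.391% of all genes), and the median change was 0.13, below the 0.23 of all genes. Intervals lay above 1 for ISG15, IFIH1, EIF2AK2 and ADAR (53.7% of all genes), and below 1 for IFI6 (8.25% of all genes). Centred, 2.67% of all genes were higher and 0.808% lower. From reference-matched isoforms alone, ISG15 was past 2-fold (log2 1.19), on 3.40 reads in XRN1 and 7.71 in SMG6/XRN1. The ratio of 2.38 had an interval that held 1 (0.672 to 16.4). On that measure 5.95% of genes with a mean of at least 20 reads were past 2-fold, a minimum that ISG15 did not reach.

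Adding the depletion of UPF1 moved 3 of the 10 genes by 2-fold. ISG15 was the 1 gene that rose (6.94% of all genes were called higher), and IFITM3 and IFIT1 were the 2 that fell (1.96% of all genes were called lower). The median change of the 10 genes was -0.42, while that of all genes was 0.11. The 11 HEK293 markers had a median of -0.39 in the same comparison, with PAX2 past 2-fold lower, and their part in the result was not tested. Intervals lay above 1 for ISG15, ISG20, IFIH1 and EIF2AK2 (41.8% of all genes) and below 1 for the other 6 (24.9% of all genes). On the FPKM scale, with 1 added, ISG15 and ISG20 were past 2-fold (2.52% of loci were higher) and 0 members were lower (0.534% of loci). ISG20 reached the mean of 1 FPKM behind these shares only with its 4.80 FPKM in UPF1/XRN1. Without the added 1 the FPKM ratios were 0.387 for IFIT1 and 0.427 for the IFITM3 locus, so the addition to these low values removed both calls. Centred, 5.53% of all genes were higher and 2.85% lower. For IFITM3 the call rests on 22 and 8 reads, and the gene reached the mean of 20 reads only with the 37 reads of the control. It also rests on how the signal of its locus was divided with RP11-326C3.14.

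Against the control, SMG6/XRN1 had 2 genes higher, ISG20 and IFIH1 (19.5% of all genes), and 0 lower (0.513%). UPF1/XRN1 had 2 higher, ISG15 and ISG20 (18.5% of all genes), and 2 lower, IFITM3 and IFIT1 (1.52%). The medians of the 10 genes were 0.21 and -0.25, beside 0.41 and 0.29 for all genes. Centring left 10.2% of all genes higher and 1.78% lower for SMG6/XRN1, and 12.4% and 3.9% for UPF1/XRN1. On the FPKM scale IFIH1 was higher in SMG6/XRN1 (9.3% of loci, with 0.263% lower). For UPF1/XRN1 that scale had ISG15 and ISG20 higher (10.2% of loci) and IFITM3 lower (0.575% of loci), while IFIT1 was at 0.438 in FPKM without the added 1. These shares are over loci with a mean of at least 1 FPKM. Without UPF1/XRN1 (4.80) ISG20 would have missed that minimum, as would the IFITM3 locus without the control (2.19). IFITM3 also reached the mean of 20 reads only with the 37 reads of the control. The calls of ISG20 on the FPKM scale and of IFITM3 are therefore not independent of the filters. Calls of IFITM3 by signal also rest on how its locus was divided with RP11-326C3.14. Centred, neither ISG20 nor IFIH1 was past 2-fold in SMG6/XRN1 over control, and IFITM3 was 2-fold lower (log2 -1.14). Scaled to sequenced reads in place of the spike-in, 0 members and 11.9% of all genes were higher in SMG6/XRN1 over control. Between the co-depletions, UPF1/XRN1 over SMG6/XRN1, a comparison added after the data were seen, had 0 genes higher (0.757% of all genes) and 2 lower, IFITM3 and IFIT1 (1.51%). These comparisons share libraries: XRN1 and the control each enter 3 of the 5, so the values are given side by side and not related to each other.

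**Figure D2:**
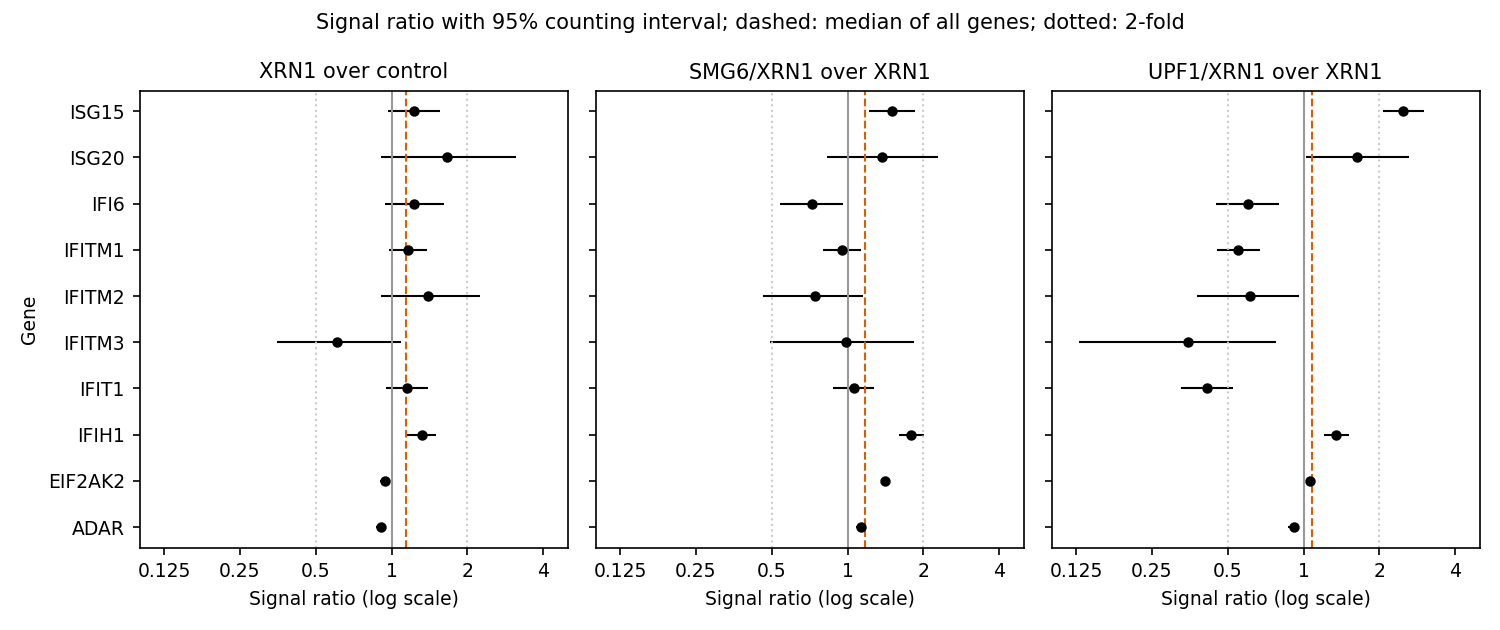
Ratio of signal (log axis) for each gene in the 3 main comparisons; points are ratios of single libraries, bars 95% counting intervals, dashed lines the median of all genes and dotted lines 2-fold. In UPF1/XRN1 over XRN1, ISG15 lies at 2.48 while IFITM3 (0.349) and IFIT1 (0.415) lie below the lower 2-fold line; in the other 2 panels no point passes 2-fold.

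The genes were also read isoform by isoform. Of their 55 isoforms, 37 matched a reference transcript and 18 only shared a splice junction with one (class j, whose structure the files do not give). Signal was above 0 in some library for 39, and 16 were listed at 0 in all 4. The authors mark isoforms as NMD targets where both co-depletions are above 0 and over 2 times the control, a rule that matched every mark with 0 mismatches. It therefore uses these same libraries and is a description. Of the 39 isoforms, 5 carried the mark (12.8%), against 22.8% of the 122816 isoforms above 0 in the whole table. Marked isoforms held 6.48%, 17.5%, 13.6% and 15.9% of the genes' reads in control, XRN1, SMG6/XRN1 and UPF1/XRN1, and 3.19%, 7.21%, 13.4% and 14.8% of all reads.

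ADAR and IFIH1 supplied nearly all of that marked signal. The marked ADAR isoform, matching ENST00000292205, had a signal of 1665 in control, 5313 in XRN1, 3752 with SMG6/XRN1 and 3821 with UPF1/XRN1. It was highest in XRN1, 3.19 (2.86 to 3.57) times the control, and both co-depletions lay below XRN1, at 0.706 and 0.719 of it. Its share of ADAR was 10.3%, 36.2%, 22.6% and 28.5%. The isoform matching ADAR-202, an annotated coding transcript, had 1954, 0, 1339 and 1313, being listed at 0 in XRN1. The main ADAR isoform, of class j, had 10669, 7241, 9786 and 6235. The marked form had its highest value in XRN1, where these 2 others were at 0 or reduced, while the sum over ADAR was 0.906 of the control. The main isoform was lower still in UPF1/XRN1, where the marked form was at 0.719 of XRN1. Whether the estimate moved reads between overlapping isoforms was not tested.

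For IFIH1, the marked isoform was IFIH1-201, the annotated coding transcript. Its values were 1007, 1628, 3156 and 2473 in control, XRN1, SMG6/XRN1 and UPF1/XRN1, and it rose 3.13-fold (SMG6) and 2.46-fold (UPF1) over the control. The class j isoform of IFIH1 had 558, 433, 539 and 309.5, and in UPF1/XRN1 it was at 0.555 (0.417 to 0.728) of the control. IFIH1-201 made up 64.4%, 79.0%, 85.4% and 88.9% of the gene. The other marked isoforms were small: ISG20-207 had 5.85 reads at most, IFIT1-202 had 4.34, and the retained-intron transcript ADAR-203 had 10.5.

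Annotation and the authors' mark did not overlap for these genes. In GENCODE release 29, 2 reference-matched isoforms are of the type nonsense-mediated decay, IFITM2-203 and IFITM3-203, and neither was marked. IFITM2-203 carried most of the IFITM2 signal, with 37.5, 43.7, 35.1 and 32.7 reads in the 4 libraries. Its ratio in UPF1/XRN1 over XRN1 was 0.688, with an interval that held 1 (0.425 to 1.11). The IFITM2 values above are thus mostly not those of a transcript annotated as protein-coding. IFITM3-203 had 1 read in SMG6/XRN1 and was listed at 0 elsewhere.

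The remaining genes differed in how many isoforms carried them. IFIT1-201 held 100%, 100%, 98.1% and 96.0% of IFIT1, so the lower value in UPF1/XRN1 was that of the main coding transcript, at 0.399 (0.313 to 0.507) of XRN1. ISG15 was spread over 3 isoforms of class j, which reached 252, 709 and 509 in UPF1/XRN1 from 79.4, 227 and 193 in control, and its reference-matched isoform had 20.1, 13.8, 32.8 and 115. All 4 ISG15 isoforms were thus higher in UPF1/XRN1 than in the control. EIF2AK2 was mostly a class j isoform with 14619, 10683, 17949 and 12961, while its reference-matched isoform had 1820.3, 3279, 2473 and 2081. IFI6-202 made up 42.4%, 64.9%, 54.6% and 67.5% of IFI6, and IFI6-203 most of the rest. IFITM3-202 fell from 87.0 in control to 14.2 in XRN1 (22.6 to 3.51 reads), was listed at 0 in SMG6/XRN1 and had 14.1 in UPF1/XRN1, while IFITM3-201 had 56.6, 73.2, 71.7 and 16.4.

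**Figure D3:**
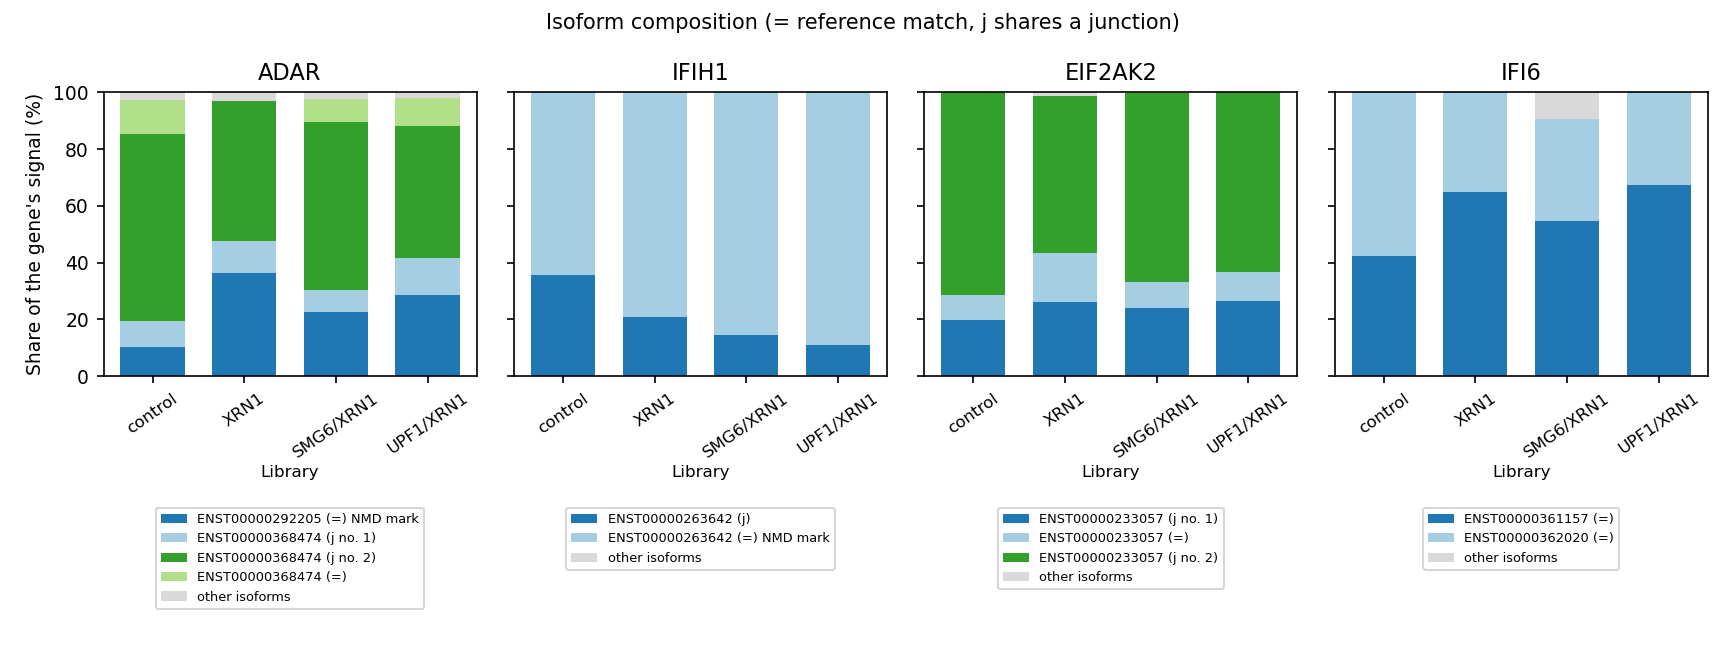
Share of each gene's signal (percent) by isoform in the 4 libraries for ADAR, IFIH1, EIF2AK2 and IFI6; bars stack the named isoforms, grey is the rest, and NMD mark is the authors' mark. The marked ADAR isoform is largest in XRN1 (36.2%), and the marked IFIH1 isoform goes from 64.4% in control to 88.9% in UPF1/XRN1.

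The rest of the pathway was followed in 5 gene lists, whose counts are read against the share of all genes called (10.2%, 5.07% and 6.94% higher and 1.43%, 0.391% and 1.96% lower in the 3 main comparisons). Among RNA sensors and their adaptors, 20 of 25 listed genes were measured, and 1 rose in XRN1 over control: DHX58 (LGP2), a helicase related to IFIH1, from 7 to 30 reads. DDX58 (RIG-I), the sensor of RNA ends with triphosphates, had 1341, 2616, 3558 and 2909 units of signal and just missed 2-fold (log2 0.96), whereas MAVS was at -0.36 and TTC37 at -0.20. The list's median in XRN1 over control was 0.18. No sensor or adaptor was past 2-fold in SMG6/XRN1 over XRN1 (median 0.34) or in UPF1/XRN1 over XRN1 (median 0.21). NFKB1, a subunit of the transcription factor NF-κB, had the largest values there, 0.81 and 0.91, followed by DHX58 with 0.65 in the SMG6 comparison and IKBKG with 0.78 in the UPF1 comparison. The lowest were RNF135 (-0.16) and MYD88 (-0.02) for SMG6, and DHX58 (-0.63) and RNF135 (-0.25) for UPF1.

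Interferon mRNAs themselves were not detected at this depth or nearly so: IFNB1 and IFNA1 were listed at 0 in all 4 libraries, and IFNL1 had 0, 1, 0 and 1 reads. A count of 0 allows up to 3 reads in a library. Of 22 genes for interferon receptors and signalling, 18 were measured. In XRN1 over control 2 of 18 rose, near the 10.2% of all genes: SOCS3 (log2 1.48, 10 to 27 reads), a feedback inhibitor, and the kinase JAK2 (1.25), with STAT3 (-0.06) and JAK1 (-0.04) lowest. IRF9, a DNA-binding subunit of the complex that acts on those elements, rose in both co-depletions over XRN1 (1.15 and 1.32). It had 13.0, 12.7, 27.1 and 34.9 reads, so it passed the expression minimum only through the co-depletions. FPKM is given per locus and not per gene. At the loci with IRF9 isoforms it was 3.08, 6.30, 7.02 and 7.19, with little change over XRN1. Whether other genes at those loci took part in these values was not tested. Without the XRN1 library, SOCS3 would not have passed the minimum either. Next after IRF9 were IL10RB (0.45) in SMG6/XRN1, where JAK2 (-0.07) and SOCS3 (0.02) were lowest, and IRF1 (0.78) in UPF1/XRN1, where SOCS3 (-0.41) and IFNGR2 (-0.35) were lowest. No gene of this list fell in the 3 main comparisons, and the medians were 0.30, 0.30 and 0.14.

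Of 6 genes that attach or remove ISG15, 5 were measured. UBE2L6, the enzyme that carries ISG15 to its targets, had 1334, 1656, 1241 and 740.3 units of signal. It fell in UPF1/XRN1 over XRN1 (log2 -1.16), the library in which ISG15 was highest. No other gene of the list passed 2-fold in the 3 main comparisons. ARIH1 (0.49) and USP18 (0.37) were highest and HERC6 (-0.24) and HERC5 (-0.09) lowest in XRN1 over control. HERC6 and HERC5, ligases of the conjugation family, were highest in SMG6/XRN1 (0.96 and 0.42) and in UPF1/XRN1 (0.63 and 0.23) over XRN1, while USP18, the ISG15 protease, had 0.12 and -0.27 and UBE2L6 had -0.42 in the SMG6 comparison. The medians were 0.31, 0.22 and 0.19.

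Of 32 genes for double-stranded RNA binding and the PKR pathway, 28 were measured. PRKRA, the protein activator of EIF2AK2, rose in XRN1 over control (log2 1.09), with signals of 3758, 8006, 10526 and 10215. ADARB1, an editing enzyme related to ADAR, went from 1106 to 2207, just short of 2-fold, and ADARB2 (-0.84) and ILF2 (-0.17) were lowest. No gene of this list was past 2-fold in SMG6/XRN1 over XRN1, where ADARB2 (0.66) and EIF2B1 (0.58) were highest and EIF2S3 (-0.06) was among the lowest. ADARB2 rose in UPF1/XRN1 over XRN1 (1.49), from 19.7 to 61.0 reads. PPP1R15A, a regulator of eIF2 dephosphorylation, had 0.84 there, and EIF2S3 (-0.48) and ADARB1 (-0.30) were lowest. OAS1 had 0, 1, 0 and 0 reads. The medians were 0.27, 0.14 and 0.05.

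Other interferon-stimulated genes also moved unevenly. Of 74 listed symbols, 71 were in the table and 49 measured. In XRN1 over control 5 of 49 rose, the same share as of all genes (10.2%), and 0 fell. The 5 were MX1, a dynamin-like antiviral GTPase (log2 2.31), STOML1 (1.64), IFI27 (1.42), HLA-E (1.17) and IFI30 (1.07), of which the last 3 were named after their values were seen. MX1 had 123 units of signal in control and 616, 642 and 573 in the depleted libraries, from 32, 152, 151 and 154 reads. IFI27 had 14, 36, 15 and 24 reads and reached the mean of 20 reads only with the XRN1 library. Its calls over the control and below XRN1 are therefore not independent of the filter. APOBEC3B (-0.68) and SAMD9 (-0.45) were lowest. In SMG6/XRN1 over XRN1, APOBEC3B, a cytidine deaminase (1.92), and DDX60L, a helicase-family gene (1.68), rose and IFI27 fell (-1.18), with GBP2 next at -0.37. In UPF1/XRN1 over XRN1, DDX60L rose (1.15) and IFI30, a lysosomal thiol reductase, fell (-1.06), with APOBEC3B at 0.90 and IFI27 at -0.70. The medians were 0.30, 0.30 and 0.12. Of the relatives of IFIT1, IFIT2 had 108, 97.2, 157 and 93.0 units of signal and IFIT3 had 235, 215, 340.1 and 286, both within 2-fold of XRN1 in UPF1/XRN1.

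**Figure D4:**
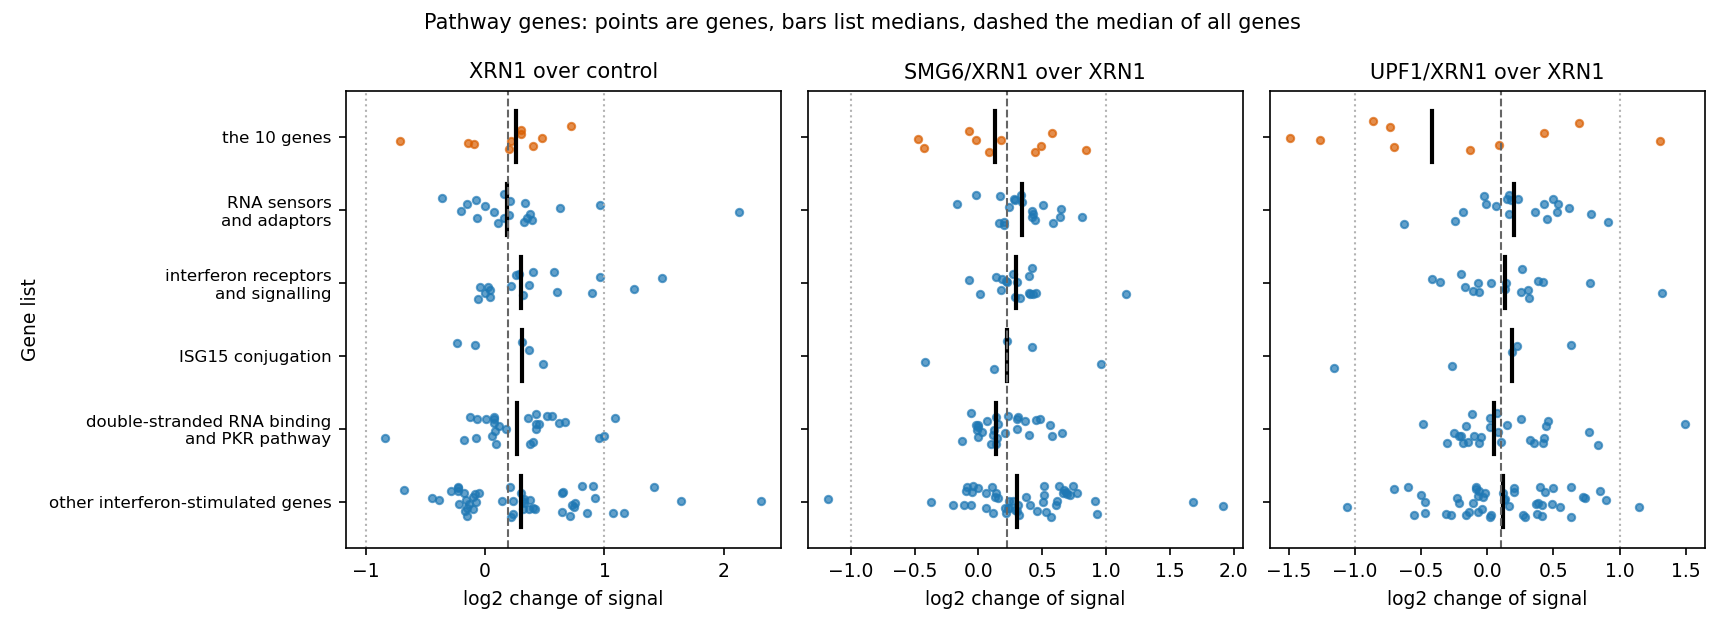
Log2 change of signal for the 10 genes and the measured genes of the 5 pathway lists in the 3 main comparisons; points are genes, black bars list medians, the dashed line is the median of all genes and dotted lines mark 2-fold. In UPF1/XRN1 over XRN1 the 10 genes have a median of -0.42, and the pathway list medians lie between 0.05 and 0.21; the HEK293 markers, not drawn, have -0.39.

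ISG15 had the widest range of the members with a mean of at least 100 reads, 1.60 on the log2 scale. The 3 genes whose centred profile over the 4 libraries was nearest to it, among 12170 genes, were RP11-418J17.1, PSMC3IP and PDRG1. Their largest differences from ISG15 in any library were 0.06, 0.07 and 0.09. PSMC3IP signal, for instance, was 7315, 8253, 13055 and 21278.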

How the data were processed

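Cytoplasmic poly(A)+ RNA from 4 siRNA-treated groups was sequenced with ScriptSeq v2, with 1 library each, per the labels' protocols. Per the submitters' processing notes, the tools were Cufflinks 2.0.2, TopHat2 2.0.6, Bowtie 0.12.7 and CASAVA 1.8.2, with no role or order given, and the genome hg19. The authors deposited isoform values as a spike-in normalised signal (estimated reads scaled by 1 factor per library) and gene values as FPKM per assembled locus. Neither the making of the spike-in factor nor any use of strand was given in the sources used here. Overlapping genes and near-identical copies are therefore uncertain.

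Depth was recovered from the steps of low values, and 84.5% to 86.6% of loci with at most 20 reads were whole within 0.01. Since other loci hold fractions, no count test was run. Isoform signal was summed per gene symbol, and genes needed a mean of 20 estimated reads (15596 of 49622), which all 10 members passed. Changes used a pseudocount of 1, which understates the change of low genes, and were called at 2-fold. Isoform matches and class codes were those deposited by the authors. Transcript names and types came from GENCODE release 29 by transcript ID, where 36 of 37 reference transcripts of the members were found. Scripts were tested on simulated data and used Python 3.11.15, pandas 2.3.3, numpy 2.4.6, scipy 1.17.1 and Biopython 1.88.

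The members and lists were chosen with earlier results of these data known. Named genes were all members, up to 2 highest and 2 lowest measured genes of each pathway list in each main comparison, isoforms with at least 10% of a gene and 20 reads, and the 3 genes with the profile nearest to the member of widest range. The lists were 5 pathway lists and 3 marker lists. Alternatives were FPKM, centring, a pseudocount of 4, no filter and reference-matched isoforms only, with scaling to sequenced reads added after seeing the data. OAS1, IFIT2, IFIT3 and the interferon genes were named after their values were seen. An item that the naming rule picks is not reported here.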

Additional observations from a re-analysis of the deposited data

How the results depend on the processing

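No paired analysis was possible because each group had 1 RNA-seq library and no numbers shared between groups, and leaving out a replicate was likewise impossible. Of 50 member changes (10 genes in 5 comparisons), all kept their direction with a pseudocount of 4 and, since every member passes it, without the filter, 42 when centred on the median gene, 42 with reference-matched isoforms only and 46 when scaled to sequenced reads. On the FPKM scale 41 of 45 did, counted over loci. With reference-matched isoforms only, 1 member, ISG15, was 2-fold higher in SMG6/XRN1 over XRN1, on 7.71 against 3.40 reads and with an interval that held 1. In UPF1/XRN1 over XRN1, FPKM gave 2 higher and 0 lower, although without the added 1 the FPKM ratios of IFIT1 (0.387) and IFITM3 (0.427) were past 2-fold. In SMG6/XRN1 over control, centring gave 0 higher, 1 lower and a median of -0.20, FPKM gave 1 higher, and scaling to sequenced reads gave 0 higher. In UPF1/XRN1 over control, FPKM gave 1 lower, with IFIT1 at 0.438 before the addition. The share of reads in marked isoforms was 30.8%, 54.2%, 52.8% and 56.3% over the 4 libraries (control first, UPF1/XRN1 last) with reference-matched isoforms only, and the median of the members' own shares was 0 in each library. Class j isoforms, which hold most ADAR, EIF2AK2 and ISG15 signal, leave that share's denominator; beyond this the cause was not tested. Depth limits ISG20, IFITM2 and IFITM3 most, with 8 to 53 reads.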
